A study of Saccharomyces cerevisiae with 24 samples.

Results

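The 10 genes described here encode the enzymes that make and break down the neutral lipids of budding yeast (Saccharomyces cerevisiae), the triacylglycerols and the steryl esters. They were chosen by function, as a list of systematic names, from the 7032 features of a count table of 24 RNA sequencing libraries, and all 10 passed the filter on low counts. The 4 synthase genes are DGA1 and LRO1, which make triacylglycerol, and ARE1 and ARE2, which make steryl esters. The 6 lipase and hydrolase genes are TGL3, TGL4 and TGL5, which act on triacylglycerol, and TGL1, YEH1 and YEH2, which act on steryl esters.

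Yeast stores surplus fatty acids and sterols as neutral lipids in lipid droplets, which bud from the endoplasmic reticulum. Synthases join a fatty acid to diacylglycerol or to a sterol, and lipases release the fatty acid again for membrane phospholipids or as fuel. In growing cells the store is drawn on around bud emergence, and the lipase Tgl4 is known as a target of the cell cycle kinase Cdc28.

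The libraries form a series of cell sizes. Wild-type diploid cells of the BY4743 background, a laboratory strain, were grown in rich medium (YPD) at 30 °C, and G1 cells were collected by centrifugal elutriation (separation of cells by sedimentation) and then grew on to each size. Growth was stopped with cycloheximide (100 µg/ml) and sodium azide (0.1%), and frozen cells of like size were pooled, so a library comes from a pool of cultures. The labelled sizes ran from 39.1 to 75.9 fL and fall into 8 groups of 3 biological replicates, one for every 5 fL between 40 and 75 fL. All groups share strain, medium and treatment. The library labelled 67.5 fL, midway between groups, is called replicate 1 of 70 fL.

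Library totals lay between 16103753 and 24408547 counts, and the 10 genes had 769 to 11015 counts each. URA3 and LEU2, which BY4743 lacks, had 0 counts in all 24 libraries. The summed level of 14 haploid-specific genes, which a diploid of both mating types represses, was 122 to 133 CPM at 75 fL, against 194 to 211 CPM at 40 fL, and none of the 14 was at 0 in all libraries. The mitotic cyclin genes CLB1 and CLB2 together had 613 to 767 CPM at 75 fL, against 7.13 to 12.9 CPM at 40 fL. The G1/S cyclin genes CLN1 and CLN2 had 295 to 422 CPM at 75 fL, against 11.9 to 27.2 CPM at 40 fL. For the S phase histone genes HTA1 and HTA2 it was 581 to 844 CPM, against 95.4 to 107 CPM. Cell cycle stage thus moves with size, as do time in culture and the cultures pooled, and these cannot be told apart here. Replicate 1 of 40 fL, replicate 3 of 45 fL, replicates 2 of 50 and 55 fL and replicate 1 of 70 fL, 5 libraries in all, stood apart: each was 1.4 times or more as far from its group's other libraries as these were from each other. Levels are CPM with TMM scaling unless TPM is named. Both are shares of a library, so less RNA of a gene per cell and more RNA of all other genes cannot be told apart. Against 40 fL, the median log2 change of all tested genes at 75 fL was -0.0083 with TMM scaling, -0.28 with library totals and -0.42 with deposited TPM plus 1, and rises reported below are therefore relative to the TMM scale.

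Most of the 10 genes differed with size, as did most of all tested genes. With TMM scaling genes of both classes went in both directions. In edgeR's quasi-likelihood test over the 8 sizes 9 of 10 genes had an adjusted p (Benjamini-Hochberg) below 0.05, which 79.6% of all 6402 tested genes had. YEH2 did not pass (adjusted p = 0.749 in edgeR), though it did with deposited TPM (limma adjusted p = 0.0128). With library totals 6 of 10 passed over the 8 sizes (79.8% of all genes did), without ARE1, TGL5 and TGL1, and with deposited TPM also 6 of 10 (82.0% of all genes did), without these and LRO1. ARE1 was also lost with upper quartile factors and without any 1 of the 3 libraries of 40 fL or 65 fL replicate 3 (edgeR adjusted p of 0.0529 to 0.0622). Between 75 and 40 fL 8 of 10 passed, against 61.2% of all genes. Of these 4 rose (31.0% of all genes did), LRO1, ARE1, TGL5 and TGL1, of which ARE1 and TGL5 turned round with deposited TPM, and 4 fell (30.2% of all genes did), ARE2, TGL3, TGL4 and YEH1. With library totals in place of TMM 5 of 10 passed (65.0% of all genes did), of which 1 rose, and with deposited TPM 6 of 10 passed (69.6% of all genes did), all 6 of them lower at 75 fL. Of all 6402 tested genes 1221 rose and 2941 fell with library totals, and 933 rose and 3524 fell with deposited TPM. The 4 falls passed under every scaling and with any single library left out. The libraries of the 2 sizes did not overlap for 8 of 10 genes in TMM-scaled CPM, against 72.8% of all genes, and for 8 of 10 in TPM, against 79.2% of all genes.

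**Figure D1:**
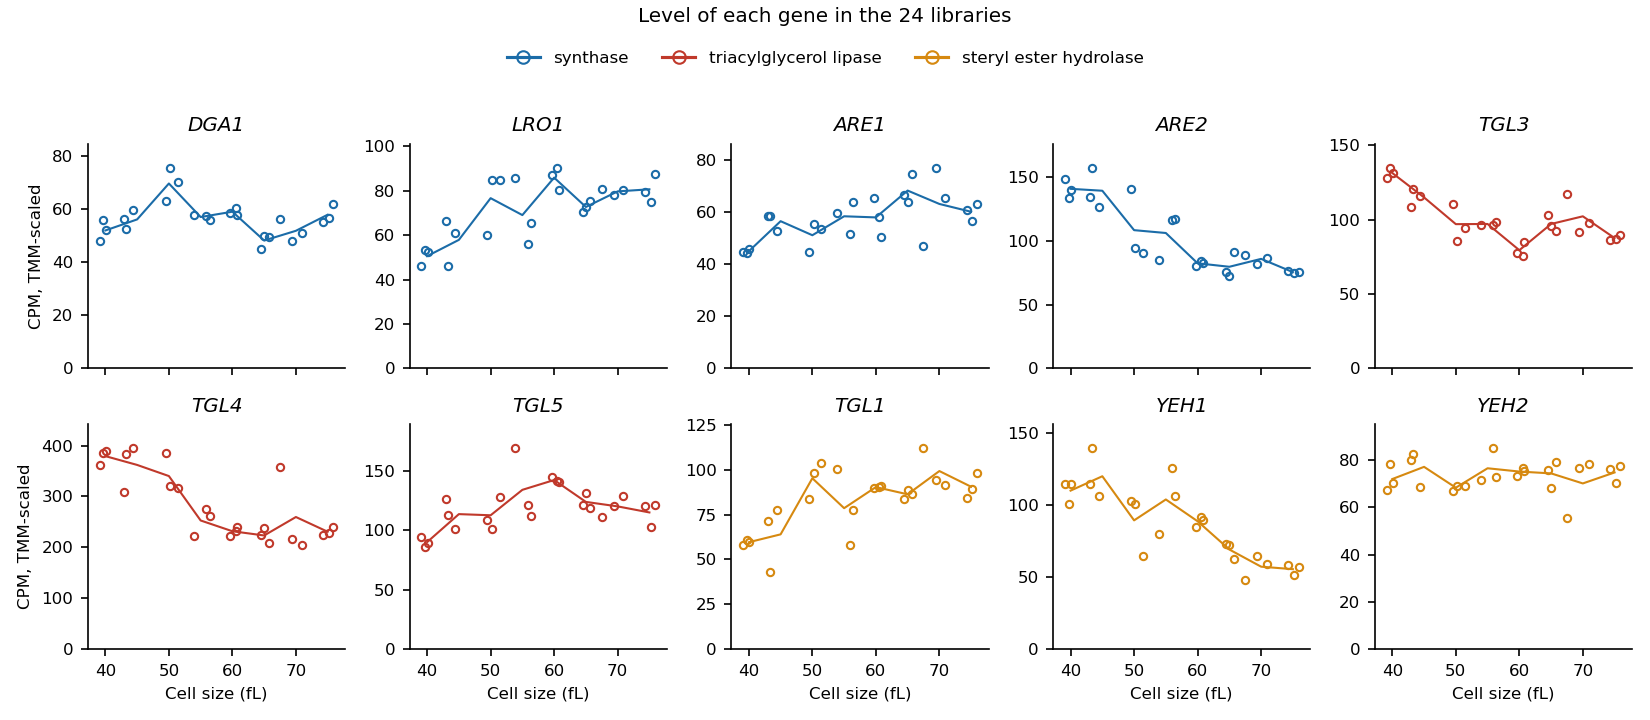
Level of each of the 10 genes in CPM with TMM scaling (vertical axis) against the labelled cell size in fL (horizontal axis). Each circle is 1 library, lines join the means of the 8 size groups, and colours mark synthases, triacylglycerol lipases and steryl ester hydrolases. ARE2, TGL4 and YEH1 lie lower at 75 fL than at 40 fL, TGL1 and LRO1 lie higher, and YEH2 keeps between 55.5 and 85.0 CPM.

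Among the synthases, LRO1 rose. It encodes the acyltransferase that takes the fatty acid from a phospholipid and is known as the main triacylglycerol synthase of growing cells (YNR008W, chromosome XIV, 640396 to 642381, plus strand). It had 79.5, 75.1 and 87.4 CPM at 75 fL, against 53.2, 46.0 and 52.6 CPM at 40 fL. Every 75 fL library lay above every 40 fL library. The log2 change was 0.67 ± 0.15 (SE; edgeR adjusted p = 0.00099), but with deposited TPM it was 0.23 and did not pass (limma adjusted p = 0.138). Its group means were 50.6, 57.9, 76.7, 69.1, 85.9, 72.7, 79.7 and 80.7 CPM, in order of size.

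DGA1, the acyltransferase that uses acyl-CoA and is best known for storage in stationary phase (YOR245C, chromosome XV, 794076 to 795332, minus strand), was highest at 50 fL. Its libraries had 70.2, 62.9 and 75.5 CPM at 50 fL, against 55.7, 47.7 and 52.1 CPM at 40 fL. The 3 libraries at 50 fL lay above those of every other size on this scale, while in TPM replicates 1 and 3 of 40 fL, with 53.6 and 51.5, lay among them (49.9 to 54.3). The change between 50 and 40 fL was 0.42 ± 0.08 (edgeR adjusted p = 0.000619), and with deposited TPM it was 0.035 and did not pass (limma adjusted p = 0.78). At 75 fL DGA1 had 54.9, 56.7 and 61.7 CPM, which overlapped the 40 fL libraries, with a log2 difference of 0.16 ± 0.08 (edgeR adjusted p = 0.119) that turned to -0.27 with deposited TPM and passed there as lower (limma adjusted p = 0.0241).

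The steryl ester synthases went apart. ARE2, known as the major sterol acyltransferase of aerobic cells (YNR019W, chromosome XIV, 665339 to 667267, plus strand), had 76.4, 74.5 and 75.3 CPM at 75 fL, against 133.5, 149 and 139.8 CPM at 40 fL. The groups lay far apart and did not overlap. The change was -0.90 ± 0.15 (edgeR adjusted p = 5.10e-05), and over all scalings it kept its sign and passed. ARE1, the other sterol acyltransferase (YCR048W, chromosome III, 211929 to 213761, plus strand), had 60.8, 56.6 and 63.3 CPM at 75 fL, against 44.3, 44.8 and 46.1 CPM at 40 fL. These libraries did not overlap either, and ARE1 was higher by 0.42 ± 0.14 (edgeR adjusted p = 0.0147), but by 0.15 with library totals and by -0.019 with deposited TPM, neither of which passed. The last 298 bases of ARE1 overlap YCR050C on the other strand, which had 15 to 44 counts, far fewer than ARE1's 769 to 1307.

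Both main triacylglycerol lipase genes fell. TGL4 encodes the yeast counterpart of mammalian adipose triglyceride lipase (YKR089C, chromosome XI, 605633 to 608365, minus strand) and was the most abundant of the 10 in TPM at 75 and at 40 fL. It had 225, 227 and 239.6 CPM at 75 fL, against 385, 363 and 390.0 CPM at 40 fL. No library of either group came near the other group. TGL4 changed by -0.72 ± 0.16 (edgeR adjusted p = 0.000897). Its group means were 379, 362, 340.0, 253, 232, 223, 259.6 and 231 CPM over the 8 sizes, smallest first. On this scale the larger step lay between 50 and 60 fL, while in TPM the means were 171, 118 and 78.6 at 40, 50 and 60 fL, with log2 changes of -0.55 and -0.56 for the 2 steps. At 70 fL replicate 1, labelled 67.5 fL, stood apart with 358 CPM, beside 216 and 205 CPM in the other libraries of its group.

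TGL3, known as the main triacylglycerol lipase of the lipid droplet (YMR313C, chromosome XIII, 899379 to 901307, minus strand), had 86.2, 87.3 and 89.5 CPM at 75 fL, against 135, 128 and 131 CPM at 40 fL. The groups did not overlap, and the spread within each was small. The change was -0.58 ± 0.09 (edgeR adjusted p = 4.99e-05). TGL5, a lipase related to Tgl4 (YOR081C, chromosome XV, 476939 to 479188, minus strand), had 121, 103 and 121 CPM at 75 fL, against 86.2, 94.6 and 89.2 CPM at 40 fL. It was higher by 0.35 ± 0.13 (edgeR adjusted p = 0.0239), but by 0.081 with library totals and by -0.085 with deposited TPM. The call was also lost without 40 fL replicate 1 or 3 or without 75 fL replicate 1 or 3, with adjusted p of 0.0704, 0.0586, 0.0727 and 0.0781 in edgeR. By group mean TGL5 was highest at 60 fL, with 141, 145 and 141 CPM, and its highest single library was 55 fL replicate 2, with 169 CPM.

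The steryl ester hydrolases took 3 courses. YEH1, a hydrolase of the lipid droplet (YLL012W, chromosome XII, 125534 to 127255, plus strand), had 58.6, 51.2 and 56.7 CPM at 75 fL, against 101, 114 and 115 CPM at 40 fL. It had the largest fall of the 10 between these sizes, -0.99 ± 0.17 (edgeR adjusted p = 9.99e-05), with no overlap. TGL1, the other droplet hydrolase (YKL140W, chromosome XI, 180779 to 182425, plus strand), had 83.9, 89.3 and 98.1 CPM at 75 fL, against 60.9, 58.2 and 59.6 CPM at 40 fL. All 3 larger-cell libraries were higher, and TGL1 rose by 0.60 ± 0.18 (edgeR adjusted p = 0.00739), though with library totals the difference of 0.33 did not pass (edgeR adjusted p = 0.114), nor did 0.16 with deposited TPM. YEH2, the hydrolase of the plasma membrane (YLR020C, chromosome XII, 181789 to 183405, minus strand), had 76.3, 70.3 and 77.7 CPM at 75 fL, against 78.4, 67.4 and 70.2 CPM at 40 fL. The groups overlapped, with a difference of 0.055 ± 0.11 (edgeR adjusted p = 0.689) that was -0.37 with deposited TPM and passed there as lower (limma adjusted p = 0.00609).

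**Figure D2:**
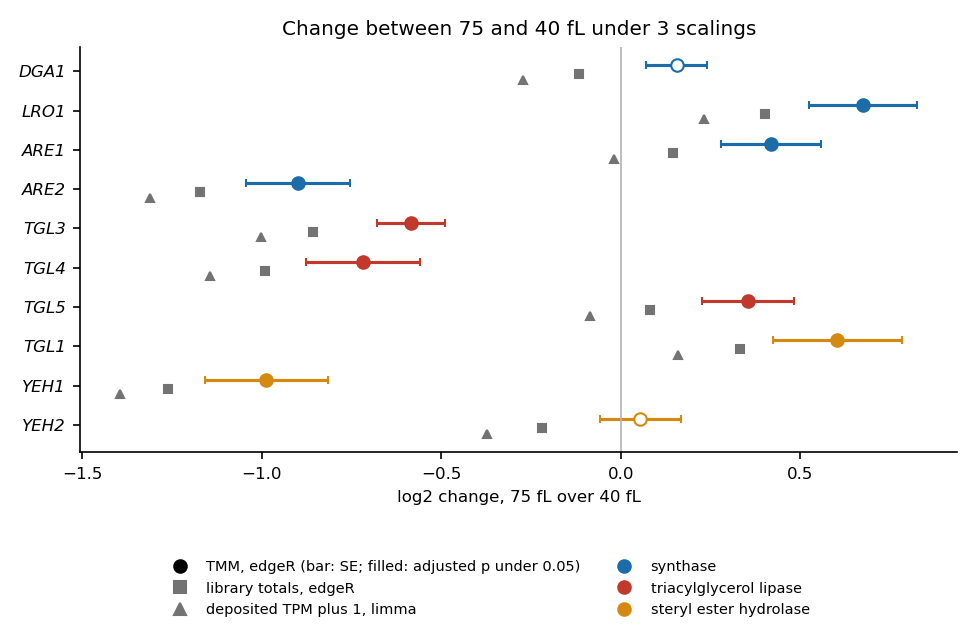
Log2 change of each gene at 75 fL over 40 fL (horizontal axis) under 3 scalings. Circles are TMM with edgeR, with bars of 1 SE, filled where the adjusted p is under 0.05, squares are library totals and triangles are deposited TPM plus 1 with limma. ARE2, TGL3, TGL4 and YEH1 lie below 0 under all 3, LRO1 and TGL1 lie above 0 under all 3, and DGA1, ARE1, TGL5 and YEH2 cross 0.

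A ratio between 2 genes of the same library does not depend on how libraries are scaled. TPM ratios were therefore also compared for 4 pairs of genes that make, or that break down, the same lipid. Other such pairs were not compared. Among them are TGL3 and TGL4, which both fell, with 41.4 and 76.8 TPM at 75 fL, against 83.9 and 171 at 40 fL. The ratio of ARE2 to ARE1 was 1.19 ± 0.0602 at 75 fL, against 2.97 ± 0.163 at 40 fL (SD, n = 3). ARE2 thus exceeded ARE1 in all libraries of both sizes, by less at 75 fL. TGL4 stood to TGL5 at 1.66 ± 0.145 at 75 fL, against 3.48 ± 0.282 at 40 fL. For YEH1 over YEH2 the ratio was 0.696 ± 0.0210 at 75 fL, against 1.45 ± 0.209 at 40 fL, so the order of these hydrolase genes was reversed between the sizes. For LRO1 over DGA1 it was 0.884 ± 0.0412 at 75 fL, against 0.617 ± 0.0187 at 40 fL. None of the 4 ratios overlapped between the groups. Single genes did not overlap in TPM for 79.2% of all genes, and the share among gene pairs in general was not computed. Each two-sided exact permutation test gave p = 0.1 (0.1 adjusted over the 4 pairs), the smallest that 3 libraries against 3 allow. Without overlap this p is fixed, so it adds nothing to the lack of overlap.

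**Figure D3:**
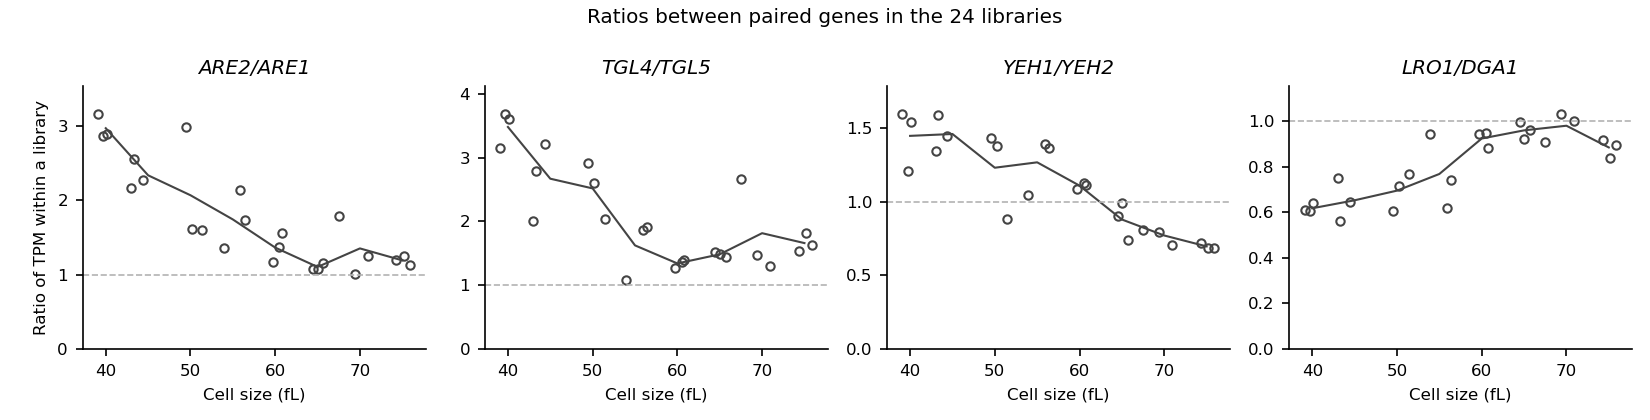
Ratio of TPM between 2 genes of the same library (vertical axis, dashed line at 1) against cell size in fL (horizontal axis). The 4 pairs are genes that make, or that break down, the same lipid. Each circle is 1 library, and lines join group means. The ratios of ARE2 to ARE1, TGL4 to TGL5 and YEH1 to YEH2 are lower at 75 fL than at 40 fL, and that of LRO1 to DGA1 is higher.

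Synthases and lipases differed less as classes than as single genes. In TPM, which is per length and so allows sums over genes, the 4 synthase genes together had 140.5, 136 and 157 at 75 fL, against 199, 202 and 206 at 40 fL. The 6 lipase and hydrolase genes had 281, 268 and 309.6 at 75 fL, against 476, 477 and 493 at 40 fL. Both sums were lower at 75 fL without overlap, on a scale on which the median gene was also lower. Within a library the synthase sum was 0.500 to 0.507 of the lipase sum at 75 fL and 0.417 to 0.423 at 40 fL. The other sizes lay between 0.424 and 0.525, with the extremes in 70 fL replicate 1 and 65 fL replicate 3.

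The mean log2 CPM of the synthase genes minus that of the lipase genes was -0.53 ± 0.015 at 75 fL, against -0.83 ± 0.025 at 40 fL (SD, n = 3), a difference of 0.30. No test was made of this score, since its members were chosen with earlier results known. Taking medians of members instead of means gave 0.56. The difference in means was 0.20 between 50 and 40 fL, 0.0064 between 60 and 50 fL and 0.096 between 75 and 60 fL. With medians of members it was 0.47 between 50 and 40 fL and 0.14 between 60 and 50 fL and turned to -0.058 between 75 and 60 fL, and with 1 library left out the difference in means ranged over 0.16 to 0.26, -0.056 to 0.058 and 0.045 to 0.13. For single changes between 75 and 40 fL, the median was 0.29 over the 4 synthase genes and -0.26 over the 6 lipase genes, beside -0.0083 over all tested genes, and each class held genes that rose and genes that fell.

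By role, the triacylglycerol lipases had the highest summed TPM and the largest absolute difference in it, with 165 ± 11.3 at 75 fL, against 304 ± 6.56 at 40 fL. The triacylglycerol synthases had 78.9 ± 7.70 at 75 fL, against 82.1 ± 5.47 at 40 fL, and these libraries overlapped. The steryl ester synthases had 65.5 ± 3.72 at 75 fL, against 120.1 ± 6.59 at 40 fL, lower in about the same proportion as the triacylglycerol lipases. The steryl ester hydrolases had 122 ± 9.84 at 75 fL, against 178 ± 3.96 at 40 fL. Within the synthases, ARE2 made up 24.7% ± 1.11 of the summed TPM at 75 fL, against 44.4% ± 2.71 at 40 fL, and LRO1 made up 25.6% ± 0.802 at 75 fL, against 15.5% ± 1.10 at 40 fL. Within the lipases, TGL4 made up 26.9% ± 0.646 at 75 fL, against 35.4% ± 0.811 at 40 fL, and TGL1 made up 17.5% ± 1.02 at 75 fL, against 9.24% ± 0.146 at 40 fL.

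**Figure D4:**
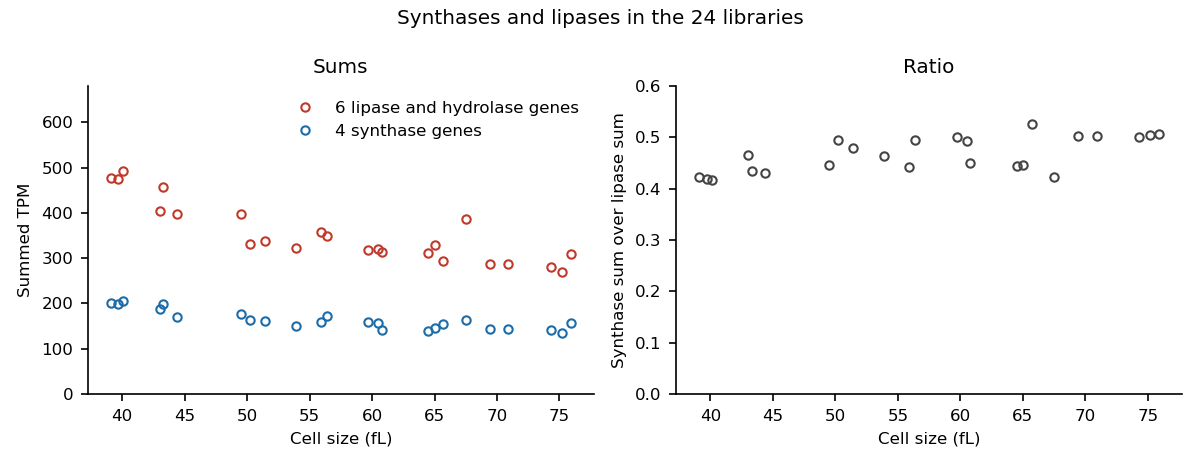
Summed TPM of the 4 synthase genes and of the 6 lipase and hydrolase genes (left, vertical axis) and the ratio of the sums (right, vertical axis) against cell size in fL (horizontal axes), 1 circle per library. The ratio is 0.500 to 0.507 at 75 fL and 0.417 to 0.423 at 40 fL.

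In TPM the order of the 10 genes was compressed at 75 fL. At 75 fL TGL4 led with 76.8 ± 4.99, and the others ran from TGL1 at 50.1 ± 5.42 to YEH1 at 29.3 ± 2.52 (SD, n = 3). At 40 fL TGL4 led with 171 ± 6.42, followed by ARE2 at 89.8 ± 5.97, TGL3 at 83.9 ± 1.38 and YEH1 at 78.7 ± 6.93, with ARE1 last at 30.3 ± 1.00. Neighbours in this order overlapped at 75 fL except TGL4 with TGL1 and ARE2 with ARE1. At 40 fL ARE2, TGL3 and YEH1 each overlapped the next, as did YEH2, DGA1 and TGL5, and LRO1 and ARE1, and the other neighbours did not. Averaged over all libraries, the genes ranged from percentile 35.5 of 5914 protein-coding genes (ARE1) to percentile 78.2 (TGL4).

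Calls were also made for steps between sizes. Between 50 and 40 fL 6 of 10 genes passed, against 57.1% of all genes, of which DGA1, LRO1, TGL5 and TGL1 rose (32.8% of all genes did; TGL5 turned round with deposited TPM) and ARE2 and TGL3 fell (24.2% of all genes did). Their log2 changes were 0.42 ± 0.08, 0.60 ± 0.15, 0.32 ± 0.13 and 0.68 ± 0.18 for the rises and -0.38 ± 0.14 and -0.44 ± 0.09 for the falls. With deposited TPM none of the 4 rises passed (0.035, 0.19, -0.068 and 0.28), and 5 of 10 genes passed as lower, ARE2, TGL3, TGL4, YEH1 and YEH2. On that scale 3095 of all 6402 tested genes passed as lower and 886 as higher, 62.2% in either direction. With library totals 5 of 10 passed (58.4% of all genes did), TGL1 as higher and ARE2, TGL3, YEH1 and YEH2 as lower, while DGA1 and LRO1 did not (edgeR adjusted p = 0.14 and 0.0523). Of all genes 1219 passed as higher and 2518 as lower with library totals. ARE2 lost its call without 40 fL replicate 2 or 3 or without 50 fL replicate 1 or 3 (edgeR adjusted p = 0.096, 0.0646, 0.174 and 0.148). TGL5 lost it without any 1 of the 3 libraries of 40 fL, without 50 fL replicate 1 and without 55 fL replicate 1 (edgeR adjusted p = 0.103, 0.0529, 0.0866, 0.2 and 0.051). The TGL5 call was also lost with RLE factors, upper quartile factors or no filter (edgeR adjusted p = 0.0873, 0.154 and 0.063). DESeq2 did not call it either (adjusted p = 0.0808). When only these 2 groups were fitted, TGL5, DGA1 and ARE2 all lost their calls (edgeR adjusted p = 0.116, 0.0501 and 0.0895). In that fit 2469 of all genes passed, against 3653 in the fit of all libraries. TGL4 and YEH1 differed by -0.16 ± 0.16 and -0.30 ± 0.17 and did not pass, but with deposited TPM they differed by -0.55 and -0.70 and did (limma adjusted p = 0.0216 and 0.00351), as did YEH1 with library totals at -0.55 (edgeR adjusted p = 0.0119).

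Between 60 and 50 fL TGL4 was the 1 gene of the 10 to pass, against 10.1% of all genes in either direction and 6.11% that fell, with -0.55 ± 0.16 (edgeR adjusted p = 0.0371), a call lost with deposited TPM (-0.56, limma adjusted p = 0.0748) and with library totals (edgeR adjusted p = 0.0626). This call was lost without 50 fL replicate 2 or without any 1 of the 60 fL libraries (edgeR adjusted p = 0.131, 0.102, 0.107 and 0.0985). Leaving out 50 fL replicate 2 also left 1 gene of all tested genes past the threshold. Between 75 and 60 fL YEH1 was the 1 gene to pass, against 4.01% of all genes in either direction and 2.01% that fell, with -0.68 ± 0.17 (edgeR adjusted p = 0.0271). It had 58.6, 51.2 and 56.7 CPM at 75 fL, against 89.5, 84.7 and 92.0 CPM at 60 fL, with no overlap. The call was lost when any 1 of these 6 libraries was left out, where the change stayed between -0.72 and -0.62 and the adjusted p ran from 0.0695 to 0.126 in edgeR.

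Without the 5 libraries that stood apart 9 of 10 genes passed between 75 and 40 fL (69.4% of all genes did), the 9th being DGA1 at 0.21 (edgeR adjusted p = 0.016). Between 50 and 40 fL 8 passed (70.1% of all genes did), with TGL4 at -0.25 and YEH1 at -0.48 added. Between 60 and 50 fL 3 passed (27.8% of all genes did), with DGA1 at -0.26 and TGL5 at 0.35 added. Between 75 and 60 fL 2 passed (22.1% of all genes did), with TGL5 at -0.35 added. Whether a gene's course differs from another's was not tested.

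The DNA before the start codons of TGL4 and YEH1, the lipase and the hydrolase with the deepest falls, is shown with that of YEH2, a relative of YEH1 that did not pass on the TMM scale. Each window holds the 300 bases from 400 to 101 bases before the start codon, read from the R64 genome, 5′ to 3′ on the gene's strand. Capitals mark matches, on either strand, to a sterol element (TCGTATA, read as TATACGA on the other strand) or a stress response element (AGGGG or CCCCT). The windows are TGL4 at chrXI:608466-608765 (minus strand), YEH1 at chrXII:125134-125433 (plus) and YEH2 at chrXII:183506-183805 (minus).
TGL4: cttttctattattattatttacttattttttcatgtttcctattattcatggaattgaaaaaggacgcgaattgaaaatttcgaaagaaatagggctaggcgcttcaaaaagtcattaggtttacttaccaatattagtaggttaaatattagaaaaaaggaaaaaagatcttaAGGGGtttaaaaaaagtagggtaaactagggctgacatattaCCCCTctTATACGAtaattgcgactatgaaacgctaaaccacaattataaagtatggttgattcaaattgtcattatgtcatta
YEH1: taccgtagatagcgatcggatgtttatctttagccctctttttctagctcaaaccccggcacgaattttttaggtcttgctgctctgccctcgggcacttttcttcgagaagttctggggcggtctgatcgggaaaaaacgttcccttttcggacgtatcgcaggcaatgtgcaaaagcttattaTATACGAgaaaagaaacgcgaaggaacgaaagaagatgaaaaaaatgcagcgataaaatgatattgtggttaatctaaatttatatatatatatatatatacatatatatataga
YEH2: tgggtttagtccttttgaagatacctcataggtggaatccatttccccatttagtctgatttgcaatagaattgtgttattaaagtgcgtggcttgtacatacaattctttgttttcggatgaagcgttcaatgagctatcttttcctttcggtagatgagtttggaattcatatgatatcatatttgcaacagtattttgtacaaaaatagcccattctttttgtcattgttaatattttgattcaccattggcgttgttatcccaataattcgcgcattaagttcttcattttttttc

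The sterol element letters occurred in TGL4, 177 bases before the start codon, and in YEH1, 215 bases before it, and in none of the other 7 windows searched, while 4.53% of 5913 windows of the same length in the genome hold them. The stress element letters occurred in TGL4 at 226 and 184 bases and in TGL1 at 365, beside 23.8% of all windows. TGL1 also held an SCB (CNCGAAA, 15.8% of windows). An MCB (ACGCGT, 4.01%), a forkhead site (GTAAACA, 6.31%) and the core of the inositol element (CATGTG, 9.30%) were in none of the 9 windows. Such matches describe the letters and do not show binding. Of the YEH2 window 183 bases belong to IRC25, 217 bases away, which was higher at 75 than at 40 fL by 1.10 ± 0.16 (edgeR adjusted p = 1.44e-05). PXL1, the upstream neighbour of TGL4, was higher there by 0.84 ± 0.13 (edgeR adjusted p = 2.57e-05). PUF3, that of YEH1, did not pass (-0.21 ± 0.16, edgeR adjusted p = 0.286). All 10 genes have 1 coding exon and no 31-base word found elsewhere in the genome, so reads of relatives such as TGL4 and TGL5 were unlikely to be mixed.

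Genes around the 10 in the pathway also went both ways. Of 13 genes listed for the supply of diacylglycerol, the substrate of DGA1 and LRO1, 3 rose and 7 fell between 75 and 40 fL (median -0.26). Of all genes 31.0% rose and 30.2% fell. DGK1, a diacylglycerol kinase that consumes this substrate, is among the 7, so these are not all falls of genes that supply it. With deposited TPM 2 rose and 9 fell, with DPP1 lost and ALE1 and LPP1 added as lower. On that scale 933 of all 6402 tested genes rose and 3524 fell. SLC1, which adds the second acyl chain to make phosphatidic acid, had 90.9, 109 and 91.2 CPM at 75 fL, against 48.2, 50.2 and 47.0 CPM at 40 fL, and rose by 1.00 ± 0.14 (edgeR adjusted p = 1.38e-05). AYR1, a reductase of the dihydroxyacetone phosphate route, rose by 1.45 ± 0.36, and the phosphatase gene DPP1 by 0.72 ± 0.20, or by 0.28 with deposited TPM, which did not pass. GPT2, which adds the first acyl chain, had 90.8, 114 and 107 CPM at 75 fL, against 248, 224 and 262 CPM at 40 fL, and fell by 1.23 on the log2 scale (edgeR adjusted p = 0.00025). SCT1, the other enzyme of that step, changed by -0.51 ± 0.12. PAH1, the phosphatidate phosphatase that makes diacylglycerol and was singled out after its values were seen, changed by -0.57 ± 0.15 (edgeR adjusted p = 0.0033).

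Of 8 genes of lipid droplet assembly and coat 3 rose and 2 fell between 75 and 40 fL (median 0.23), shares near the 31.0% and 30.2% of all genes. With deposited TPM none rose and 3 fell, PLN1 among them, while 933 of all 6402 tested genes rose and 3524 fell. The rises were SEI1, which encodes seipin, by 0.77 ± 0.16, SCS3 by 0.49 ± 0.09 and YFT2 by 0.45 ± 0.16, which with deposited TPM were 0.32, 0.051 and 0.013 and did not pass. LDO16 changed by -0.48 ± 0.12 and ICE2 by -0.73 ± 0.11. PLN1, the yeast perilipin, had 175, 135 and 181 CPM at 50 fL, against 96.1, 83.8 and 86.1 CPM at 40 fL, and rose by 0.88 ± 0.13 (edgeR adjusted p = 4.77e-05). At 75 fL it had 96.0, 106 and 97.1 CPM and did not pass against 40 fL. Of 4 other lipid hydrolases YJU3, a monoacylglycerol lipase, was higher at 75 than at 40 fL by 0.38 ± 0.11, or by -0.062 with deposited TPM. Of 4 genes of acyl-CoA supply FAA4 changed by -0.97 ± 0.36, the acyl-CoA binding protein gene ACB1 by -0.57 ± 0.17 and FAA1 by 0.31 ± 0.13, or by -0.13 with deposited TPM.

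Between 50 and 40 fL 7 of the 13 supply genes, 6 of the 8 droplet genes, 3 of the 4 other hydrolases and 2 of the 4 acyl-CoA genes passed, against 57.1% of all genes. With deposited TPM 8, 4, 0 and 2 of these passed, against 62.2% of all genes. The largest rise was that of AYR1, with 145, 92.3 and 149 CPM at 50 fL, against 42.2, 26.7 and 25.0 CPM at 40 fL (2.04 ± 0.37, edgeR adjusted p = 0.000261). The hydrolase genes TGL2, ATG15 and LDH1 rose by 0.60 ± 0.16, 0.49 ± 0.13 and 0.68 ± 0.18, none of which passed with deposited TPM. Between 60 and 50 fL 4 of the 13 supply genes fell, GPT2, PAH1, NEM1 and APP1, and 1 of the 8 droplet genes, LDO16. Of all genes 6.11% fell there. In that order the falls were 0.94, 0.55, 0.60, 0.22 and 0.54 on the log2 scale. Each call was lost without 50 fL replicate 2 (edgeR adjusted p = 0.0952, 0.11, 0.0651, 0.0919 and 0.083). PAH1 and APP1 also lost their calls with library totals and with deposited TPM. Between 75 and 60 fL 1 supply gene, LPP1, and 1 droplet gene, SCS3, fell by 0.54 and 0.34, beside 2.01% of all genes that fell. In edgeR SPO7, DGK1, YFT2, FAA1 and FAA4 lost their calls between 75 and 40 fL when some single library of those sizes was left out, with adjusted p of up to 0.144, 0.0665, 0.0685, 0.108 and 0.0841.

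**Figure D5:**
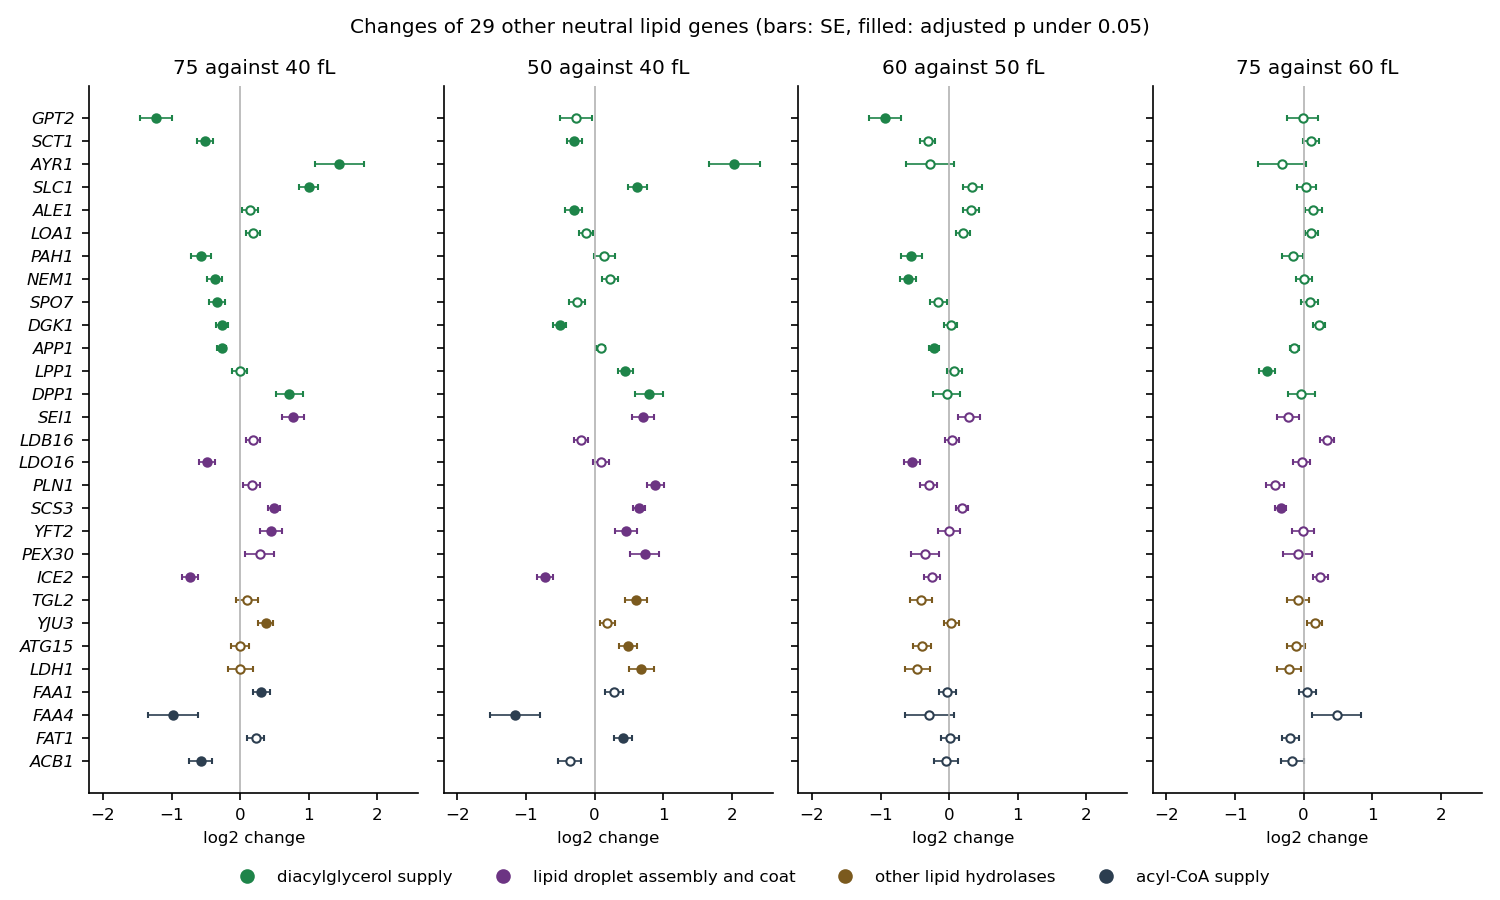
Log2 change (horizontal axes) of 29 other neutral lipid genes (rows, coloured by list) in 4 comparisons of sizes, from edgeR with TMM scaling. Bars are 1 SE, and filled circles mark an adjusted p under 0.05. Most of the filled circles stand in the comparisons of 75 and of 50 with 40 fL, and AYR1 lies farthest to the right in both. Among genes called with TMM or with deposited TPM, the changes of ALE1, PLN1, YJU3, LDH1 and FAA1 (75 against 40 fL) and of APP1 (50 against 40 fL) turn round with deposited TPM.

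Across the 24 libraries the 10 genes did not move as 1 block. Of their 45 pairs 21 had a Pearson r of log2 CPM above 0 and 24 below. The split among gene pairs in general was not computed, so this is not a trait particular to the 10. LRO1 and TGL1, a synthase and a hydrolase, were the most alike (r = 0.910, and 0.838 for deviations from the group means). LRO1 and ARE2, both synthases, were the most opposed (r = -0.861 and -0.781), and TGL3 with TGL4 had 0.781 and 0.765. The values share library, scaling and size, and they are descriptions. Among the 4921 genes that have a symbol and average 10 CPM or more, the most similar to each were PLN1, the perilipin, to DGA1 (r = 0.888), ANK1 to LRO1 (0.958), MMS1 to ARE1 (0.868), SSL2 to ARE2 (0.971), PPZ1 to TGL3 (0.934), SSH4 to TGL4 (0.973), SPC25 to TGL5 (0.906), CVM1 to TGL1 (0.976), ERG7, the lanosterol synthase of the ergosterol pathway, to YEH1 (0.928), and SYG1 to YEH2 (0.820). The next for DGA1 were HSP12 (0.887) and NQM1 (0.878), and for YEH1 SLD5 (0.926) and RFC4 (0.915).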

How the data were processed

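The data were deposited as a table of counts per feature and a table of TPM for the same 24 libraries of ribosome-depleted total RNA. The authors made the counts with featureCounts of the Subread package on genome build R64, per the submitters' processing notes. The deposited TPM are counts scaled for length within a library. For the 10 genes counts per TPM relative to DGA1 varied by at most 8.03e-05% over the libraries. The aligner, software versions and settings for strand and multiply mapped reads were not given in the sources used here.

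Libraries were grouped by the nearest multiple of 5 fL, and replicates were numbered in the order of the records. No pair was a copy (chi-square per degree of freedom of 8.72 to 247 over 24 pairs). The labels call the replicates biological but tell only that similar cultures were pooled, and p-values measure the spread between these pools.

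Counts of all libraries were fitted in edgeR 4.0.16 (under R 4.3.3), quasi-likelihood with robust estimation, with TMM factors (1.16 to 1.17 at 40 fL, 0.929 to 1.04 elsewhere), filterByExpr by group and 1 coefficient per size, which kept 6402 genes (common biological coefficient of variation 0.179). The script was tested on simulated data in which few genes changed, equally in both directions. That run did not test TMM scaling under changes as broad as those here. Adjustment was by Benjamini-Hochberg over all tested genes. The SE is the absolute log2 change over the square root of F. As the comparisons have libraries in common, no overlap between them is given. Log2 CPM for scores and correlations used a prior count of 2. Pair ratios used scipy (1.17.1). Alternatives used RLE, upper quartile or total scaling, DESeq2 (1.42.0), limma (3.58.1) on voom values or on log2 of TPM plus 1 or 0.1 (which understates changes of low genes), other filters, fewer groups and fewer libraries.

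The members, lists, motifs and the 5 libraries left out together were chosen with earlier results of these data known. Besides all 10 members the text names called list members by smallest adjusted p (up to 4 per list) or where a count was 5 or fewer, and the genes with the highest correlation to each member. Windows of 9 of the 10 genes were read from R64 (RefSeq), and that of TGL5 is not reported here. Protein sequences were not used here.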

Additional observations from a re-analysis of the deposited data

How the results depend on the processing

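The falls of ARE2, TGL3, TGL4 and YEH1 between 75 and 40 fL held their direction and passed in every alternative. Over the 8 sizes 8 to 9 of the 10 genes were called with 1 library left out. The count between 75 and 40 fL was 8, but 5 with library totals, and 7 to 8 with 1 library left out. Between 50 and 40 fL it was 6, but 3 when only these groups were fitted, and 4 to 6 with 1 library left out. Between 60 and 50 fL it was 1 in the edgeR fit of all libraries, 0 with RLE factors, library totals, TPM plus 1, TPM plus 0.1 or no filter, 2 with DESeq2, 3 without the 5 libraries that stand apart and 0 to 3 with 1 left out. Between 75 and 60 fL it was 1, but 2 when only these groups were fitted or without the 5 libraries, and 0 to 1 with 1 left out. The difference of synthases minus lipases with medians of members was 0.56 between 75 and 40 fL, 0.47 between 50 and 40 fL and -0.058, turned round, between 75 and 60 fL. With means, and 1 library left out, the difference ranged over 0.29 to 0.31, 0.16 to 0.26 and 0.045 to 0.13 for these comparisons, and over -0.056 to 0.058 between 60 and 50 fL. With TPM plus 1 and plus 0.1 these turned round between 75 and 40 fL: DGA1 (-0.27 and -0.28), ARE1 (-0.019 and -0.019), TGL5 (-0.085 and -0.086), YEH2 (-0.37 and -0.38), ALE1 (-0.28 and -0.28), PLN1 (-0.26 and -0.27), YJU3 (-0.062 and -0.063), LDH1 (-0.42 and -0.43) and FAA1 (-0.13 and -0.13). Between 50 and 40 fL TGL5 (-0.068 and -0.069) and APP1 (-0.30 and -0.30) did. Only genes called with TMM or with TPM are listed as turned round. ARE1 between 50 and 40 fL, called in no alternative, had 0.18 and went down to -0.21 over the alternatives. These scales also put the median of all genes lower, as given above. Over all genes, called rises and falls were 1985 and 1934 between 75 and 40 fL, 1221 and 2941 with library totals and 933 and 3524 with TPM plus 1, and between 50 and 40 fL they were 2101 and 1552, 1219 and 2518, and 886 and 3095. Over the 8 sizes 5096 of all genes were called, and 4664 to 5293 with 1 library left out. Between 75 and 40 fL 3919 were called, 4162 with library totals and 3430 to 4075 with 1 left out. Between 50 and 40 fL 3653 were called, 2469 with only these groups and 2612 to 4115 with 1 left out. Between 60 and 50 fL 646 genes were called, 412 with library totals, 413 with TPM plus 0.1, 256 with only these groups, 1057 with DESeq2, 1786 without the 5 libraries and 1 to 1057 with 1 left out. Between 75 and 60 fL 257 were called, 452 with DESeq2, 1129 with only these groups, 1420 without the 5 libraries and 80 to 466 with 1 left out. Other than the scalings, the cause of these shifts was not tested. No paired analysis was possible because the replicate numbers follow the order of the records and link no libraries of different sizes. Each gene had at least 769 counts per library, and no fit at lower depth was made.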
